A study of Mus musculus with 6 samples.

Results

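The complement components examined in adipose tissue were *C1qa*, *C1qb*, *C1qc*, *C1ra*, *C1s*, *C2*, *C3*, *C4b* and *Cfb*, 9 genes chosen by name from the 19509 gene symbols of the count table. Of the 9, 7 have a row, 6 have counts above 0, and all 6 of these passed the filter on low counts, while *C1qb* and *C3* are not analysed here.

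Complement is a cascade of plasma and tissue proteins that tags microbes, immune complexes and dying cells for removal. In the classical pathway the recognition molecule C1q, built from A, B and C chains, activates the proteases C1r and C1s, and C1s then cuts C4 and C2 to form an enzyme that cleaves C3. Factor B takes the place of C2 in the alternative pathway. The liver makes most circulating complement proteins, C1q comes largely from macrophages, and adipose tissue makes several components locally, including factor D, also called adipsin.

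RNA came from inguinal white adipose tissue (iWAT) of mice that ate a Western diet for 12 weeks. The 3 libraries labelled *Lexis*-AdKO came from mice in which Adipoq-cre, active in adipocytes, deletes a floxed allele of the long noncoding RNA *Lexis*, and the 3 labelled *Lexis*-AdWT came from littermates that carry the floxed allele without Cre. All mice were of the C57BL/6 background, and iWAT also holds macrophages, fibroblasts, vessels and other cells in which this Cre is not meant to act. The study gives a general age range for its mice, but the labels give neither age nor sex for these libraries.

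The libraries held between 14470542 and 17882713 counts. The row of the targeted gene was found by matching the start windows of *Lexis1* in RefSeq to chromosome 4 of the mm9 genome, where *4930412L05Rik* (chr4:53217938-53230729, minus strand) is the next gene downstream. It had 8, 9 and 8 counts in AdWT-labelled libraries against 21, 11 and 13 in AdKO-labelled ones, a log2 fold change of 0.87 (SE 0.38) that did not pass the adjusted threshold. Its count was thus no lower where the label gives a knockout, and groups are named below by their labels only. The count does not separate the deleted from the kept part of the gene. Among the adipocyte markers, *Adipoq* had between 70997 and 113310 counts in every library. Bulk RNA cannot tell fewer cells of a type from less RNA per cell.

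On the mm9 genome (NCBIM37, GENCODE annotation vM1), *C1qa* (ENSMUSG00000036887.5) lies at chr4:136451832-136454718, *C1qc* at chr4:136445719-136448980 and *C1qb* at chr4:136436044-136442102, all on the minus strand within 18675 bases. *C1ra* lies at chr6:124462423-124473458 on the plus strand and *C1s* at chr6:124480363-124586998 on the minus strand. The remaining genes are on the minus strand of chromosome 17, with *C4b* at chr17:34865325-34880827, *C2* at chr17:34999549-35035397, *Cfb* at chr17:34993319-34999463 and *C3* at chr17:57343397-57367559. *Cfb* starts 85 bases downstream of the end of *C2*.

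Several components have a near-identical relative, which bears on what a read can be assigned to. Of all 50-base windows in the longest coding transcript, 0% in *C1qa* and *C1qc* also occurred in a transcript of another gene, against 24.3% in *C1s* (shared with *Gm5077*), 35.2% in *C4b* (shared with *C4a*) and 47.5% in *C1ra* (shared with *C1rb*). For *C2* and *Cfb* the shares were 58.0% and 81.4%, both with *Gm20547*, an annotated gene on the same strand whose exons overlap 40.8% of the exonic bases of *C2* and 79.5% of those of *Cfb*. The longest transcripts of *C4b* and *C4a* (chr17:34946037-34960409, minus strand) were 96.14% identical over 5367 aligned bases. Those of *C1ra* and *C1rb* (chr6:124462790-124531062, plus strand) were 98.06% identical over 2166 bases, and those of *C1s* and *Gm5077* (chr6:124574584-124587055, minus strand) were 96.04% identical over 2855 bases. The 60 coding bases in which each pair differs most are given to show what separates the counted gene from its relative, with the differing bases in capitals. They are bases 2761 to 2820 of the *C4b* transcript, 1965 to 2024 of the *C1ra* transcript and 1746 to 1805 of the *C1s* transcript, 5′ to 3′ in the sense of the gene, with 13, 11 and 17 differences.

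C4b: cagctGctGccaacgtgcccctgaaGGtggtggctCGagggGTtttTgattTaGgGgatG

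C4a: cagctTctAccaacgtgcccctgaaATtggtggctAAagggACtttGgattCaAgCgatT

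C1ra: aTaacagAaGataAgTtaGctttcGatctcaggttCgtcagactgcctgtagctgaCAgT

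C1rb: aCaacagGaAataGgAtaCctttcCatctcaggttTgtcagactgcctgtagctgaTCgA

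C1s: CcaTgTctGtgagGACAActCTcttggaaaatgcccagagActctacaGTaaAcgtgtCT

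Gm5077: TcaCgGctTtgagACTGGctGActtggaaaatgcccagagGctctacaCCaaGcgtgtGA

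The counts divided within each pair as follows. *C4a* had between 0 and 4 counts in a library where *C4b* had between 9453 and 15341, and *C1rb* had between 2 and 6 where *C1ra* had between 1715 and 2804. Nearly all counts of these pairs thus stood under 1 member, which is the one taken as the component. *C1s* was different, with 9 to 24 counts against 4 to 18 for *Gm5077*, so neither gene of that pair held many. The division of counts between *Gm20547* and *C2* or *Cfb* is not given here. How the authors counted reads that fit more than 1 row is not given in the sources used here.

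Start windows from RefSeq (GRCm38.p6, 250 bases before to 50 after the start) were held for *C1qb*, *C1qc*, *C1ra*, *C1s* and *C3*, 5 of the 9 genes. The letters GAGGAA and their reverse TTCCTC, a core bound by PU.1, a transcription factor of macrophages and other myeloid cells, were searched on both strands. They contain the GGAA shared by the wider ETS family. *C1qb*, *C1qc* and *C1ra* held 1 match each and *C1s* and *C3* held 0, while 28.28% of 32851 start windows of the genome held at least 1. The windows of *C1qc* and *C1ra* are printed because these genes were counted and stand for the recognition molecule and its first protease, with the match in capitals. They are chr4:136892865-136893164 on the minus strand and chr6:124512371-124512670 on the plus strand.

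C1qc: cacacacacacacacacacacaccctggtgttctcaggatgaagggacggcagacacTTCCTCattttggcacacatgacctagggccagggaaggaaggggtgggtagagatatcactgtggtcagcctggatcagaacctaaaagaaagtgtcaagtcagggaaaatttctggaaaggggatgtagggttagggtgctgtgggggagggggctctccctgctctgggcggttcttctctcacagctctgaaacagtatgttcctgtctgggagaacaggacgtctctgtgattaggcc

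C1ra: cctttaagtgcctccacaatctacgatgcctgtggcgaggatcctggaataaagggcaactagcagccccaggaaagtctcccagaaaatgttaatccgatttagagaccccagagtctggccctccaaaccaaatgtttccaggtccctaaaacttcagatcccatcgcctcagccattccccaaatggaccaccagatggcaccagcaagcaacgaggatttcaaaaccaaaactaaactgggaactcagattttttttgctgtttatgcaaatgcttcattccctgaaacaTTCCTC

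The first question was how much of each component iWAT holds. Per kilobase of the longest coding transcript, the C1q chains had the highest levels, with 339 ± 87.6 CPM per kilobase for *C1qa* and 295 ± 70.2 for *C1qc* in AdWT-labelled libraries (SD, n = 3). CPM is a count as a share of its library total, here scaled by the TMM method. *C4b* followed with 134 ± 15.2. *C1ra* had 43.8 ± 2.88 and *C2* had 37.4 ± 3.02. *C1s* was listed lowest at 0.304 ± 0.125, far under *C1ra*, the protease that it partners in the C1 complex. A low listed count need not mean little RNA, since *Pnpla2*, a main lipase of adipocytes, is listed at 0 in every library. In AdKO-labelled libraries the order was the same, with 423 ± 22.5 for *C1qa*, 384 ± 39.8 for *C1qc*, 172 ± 17.1 for *C4b*, 57.8 ± 9.68 for *C1ra*, 46.6 ± 6.71 for *C2* and 0.481 ± 0.117 for *C1s*. *C1qa* and *C1qc* differed by less than the SD of either in AdWT-labelled libraries and by less than the sum of their SDs in AdKO-labelled ones, and *C1ra* and *C2* by less than the sum of their SDs in AdKO-labelled libraries. The bases that *C1ra*, *C1s*, *C2* and *C4b* share with another gene are part of the length used here, and their part in these levels was not tested.

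The second question was whether the components differ between the labelled groups. All 6 had a higher mean level in AdKO-labelled libraries, with log2 fold changes between 0.32 and 0.65 and a median of 0.37, where 51.7% of the 9872 rows tested lay above 0 and the median of all rows was 0.01. None passed the threshold, at an adjusted *p* under 0.05 by the edgeR quasi-likelihood test, adjusted by the Benjamini-Hochberg method, and neither did any other row (0% of rows called, smallest adjusted *p* 0.206). At an unadjusted *p* under 0.05, 3 components (*C1ra*, *C4b* and *C2*, all higher) stood out of 6, against 566 rows or 5.73% of all rows, and 2.76% of rows for that direction. That count of components was 6 without AdWT 1, where 11.84% of all rows had such a *p*, and 1 without AdKO 2, where 3.824% had. DESeq2 called 27 rows at an adjusted *p* under 0.05, of which 0 were components. In 2 of the components, *C1ra* and *C4b*, the groups did not overlap, with AdKO-labelled libraries higher, against 11.9% of all rows tested in either direction and 6.16% in that direction. The components were chosen with earlier results of these data known, so these counts describe the list and are no test of it.

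**Figure D1:**
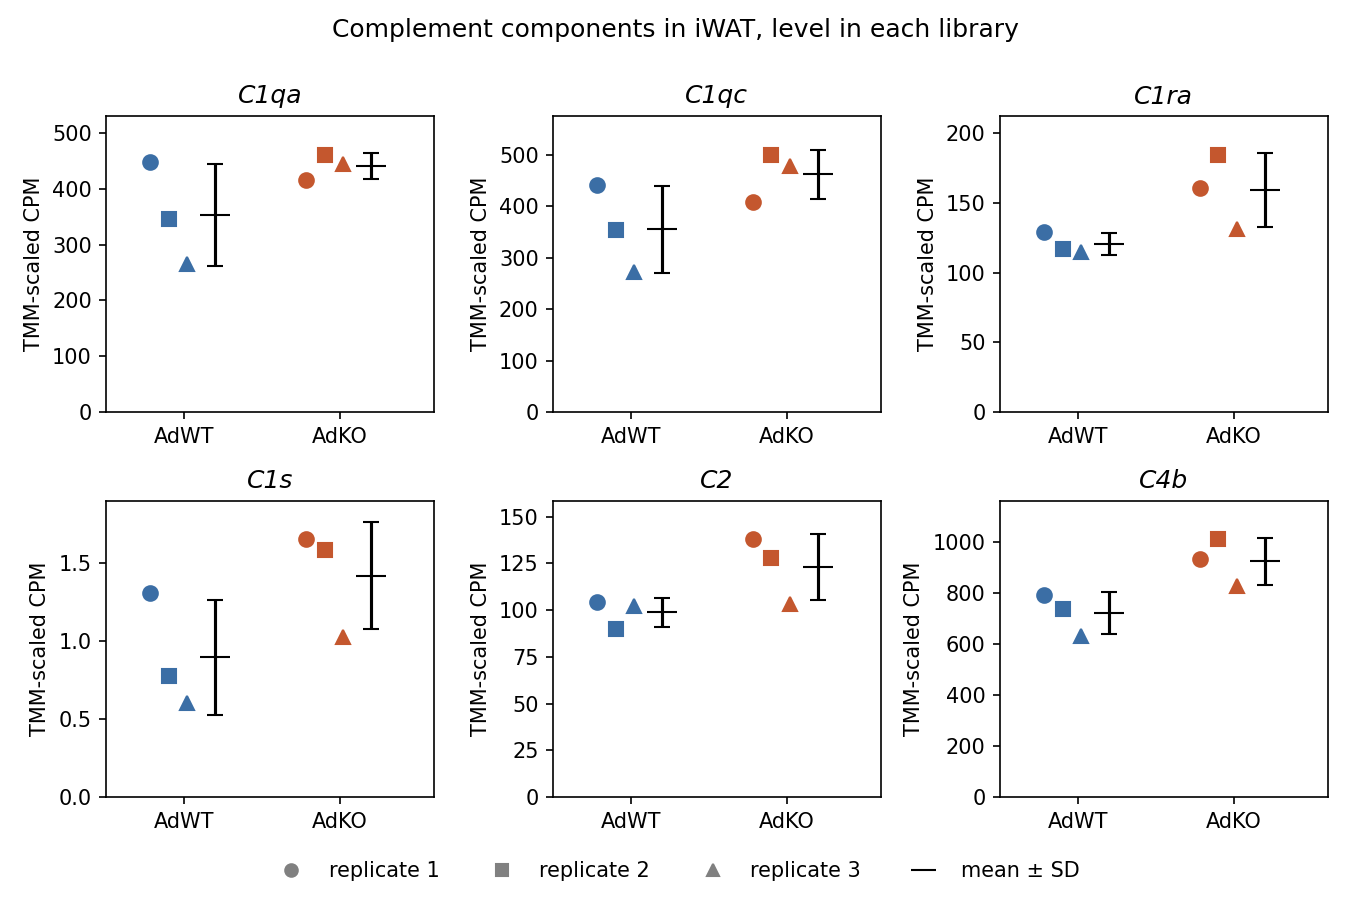
Level of each counted component in each library, in CPM scaled by TMM on a linear axis from 0, with 1 symbol for each replicate and the mean ± SD (n = 3) beside each group. The groups are apart in C1ra and C4b, where the lowest library labelled AdKO lies above the highest labelled AdWT, and they overlap in the other 4.

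The C1q chains form the recognition end of the classical pathway. *C1qa* had 6832, 5777 and 3964 counts in AdWT replicates 1, 2 and 3 and 6035, 6999 and 7395 in AdKO replicates 1, 2 and 3, which is 447, 345.3 and 265 CPM against 415, 461 and 444 CPM. AdWT 1 lay within the range of AdKO-labelled libraries, and AdWT 3 was the lowest of all. The log2 fold change was 0.32 (SE 0.17, 95% interval -0.09 to 0.73), with an adjusted *p* of 0.853 by the edgeR quasi-likelihood test, adjusted by the Benjamini-Hochberg method. *C1qc* had 6727, 5911 and 4053 counts in AdWT-labelled libraries against 5937, 7590 and 7949 in AdKO-labelled ones, which is 440, 353 and 271 CPM against 408, 500 and 478 CPM. The groups overlapped in the same way, with AdWT 1 above AdKO 1. The log2 fold change of *C1qc* was 0.38 (SE 0.17, 95% interval -0.02 to 0.78), with an adjusted *p* of 0.851 by the same edgeR test. Without AdWT 3 the log2 fold changes of the C1q chains were 0.14 for *C1qa* and 0.21 for *C1qc*, and without AdWT 1 they were 0.53 and 0.57.

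The chains were nearly equal in every library. The ratio of *C1qa* to *C1qc* CPM lay between 0.922 and 1.02, a span of 1.103-fold, while their sum spanned 1.79-fold. Among the 4745 rows compared (a mean of at least 10 CPM), each was the row nearest to the other, with a root mean square difference of 0.055 between their centred log2 CPM over the 6 libraries. The next rows were *Ehd4* at 0.065 and *Hdgfrp3* at 0.067 for *C1qa*, and *Clic1* at 0.064 and *Ehd4* at 0.066 for *C1qc*. With 6 libraries and 4745 rows, such nearness is a description only.

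C1r and C1s are the proteases of the C1 complex. *C1ra* had 1979, 1958 and 1715 counts in AdWT-labelled libraries against 2344, 2804 and 2189 in AdKO-labelled ones, which is 130, 117 and 115 CPM against 161, 185 and 132 CPM. The groups did not overlap, although AdKO 3 at 132 CPM was close to AdWT 1 at 130 CPM. The log2 fold change was 0.40 (SE 0.12, 95% interval 0.11 to 0.69), with an adjusted *p* of 0.851 by the edgeR quasi-likelihood test, adjusted by the Benjamini-Hochberg method, and an unadjusted *p* of 0.0136. A two-sided exact permutation test gave *p* = 0.1, the smallest that 3 libraries against 3 allow. *C1s*, counted at 20, 13 and 9 in AdWT-labelled libraries against 24, 24 and 17 in AdKO-labelled ones, had the largest and least certain log2 fold change, 0.65 (SE 0.36, 95% interval -0.20 to 1.504, adjusted *p* 0.853 by the same edgeR test). Without AdWT 1 the log2 fold change of *C1s* was 1.02 and without AdWT 3 it was 0.43. Its groups overlapped, and it amounted to between 0.525% and 1.02% of the *C1ra* CPM of the same library. Counts of this size carry a counting error of their own, and 16.5% of the exonic bases of *C1s* are also exonic in *Gm16567* on the other strand.

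*C4b* and *C2* encode the substrates of C1s that make up the classical C3-cleaving enzyme. *C4b* had 12130, 12336 and 9453 counts in AdWT-labelled libraries against 13606, 15341 and 13774 in AdKO-labelled ones, which is 794, 737 and 633 CPM against 935, 1011 and 828 CPM. Every library labelled AdKO lay above every library labelled AdWT. The log2 fold change of *C4b* was 0.36 (SE 0.11, 95% interval 0.09 to 0.62), with an adjusted *p* of 0.851 by the edgeR quasi-likelihood test, adjusted by the Benjamini-Hochberg method, an unadjusted *p* of 0.0149 and an exact permutation *p* of 0.1. *C2* had 1597, 1500 and 1527 counts in AdWT-labelled libraries against 2006, 1944 and 1722 in AdKO-labelled ones, which is 105, 89.7 and 102 CPM against 138, 128 and 104 CPM. On the CPM scale AdKO 3, at 103.5, lay just under AdWT 1, at 104.5, so the groups met, with AdKO 1 and AdKO 2 above all others. The log2 fold change of *C2* was 0.32 (SE 0.12, 95% interval 0.04 to 0.59). By the edgeR test its adjusted *p* was 0.851 and its unadjusted *p* 0.0296. Without AdKO 1 the log2 fold change of *C2* was 0.23. The exact permutation test gave *p* = 0.2 for *C2*, *C1qc* and *C1s* and *p* = 0.3 for *C1qa*.

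The CPM ratio of *C4b* to *C2* lay between 6.19 and 8.22 and that of *C1ra* to *C2* between 1.12 and 1.44, with overlapping groups in both. *C4b* was the row ranked 6 in nearness to *C1ra*, at a root mean square difference of 0.084, and *C1ra* was ranked 20 for *C4b*. *C4b* lay about as far from *C2*, at 0.146, as from *C1qa*, at 0.151, and *C1qa* and *C2* were 0.265 apart. The row nearest to *C4b* was *Timp2*, an inhibitor of matrix metalloproteinases, at 0.030, followed by *Nr1d2* and *Socs3*. The nearest to *C1ra* were *Adss*, *Gprc5c* and *Cd248*, to *C2* were *Inmt*, *Zfp39* and *Cirbp*, and to *C1s* were *Col8a1*, *Scara5* and *Epor*.

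*Cfb*, factor B of the alternative pathway, is listed at 0 in all 6 libraries in both of its rows. By counting error alone this allows up to 3 counts a library, or between 0.168 and 0.207 CPM before scaling, but a listed 0 need not be an absence of RNA. *Pnpla2*, the main triglyceride lipase of adipocytes, is also listed at 0 in every library, in 4 rows. Among symbols with 2 rows, as *Cfb* has, 22.38% were at 0 in every library, against 31.752% of those with 1 row, and 22.518% exceeded 1000 counts in total, against 27.961%. The part of row number and of the *Gm20547* overlap in the *Cfb* value was not tested, and no statement on factor B in these mice is drawn from it.

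**Figure D2:**
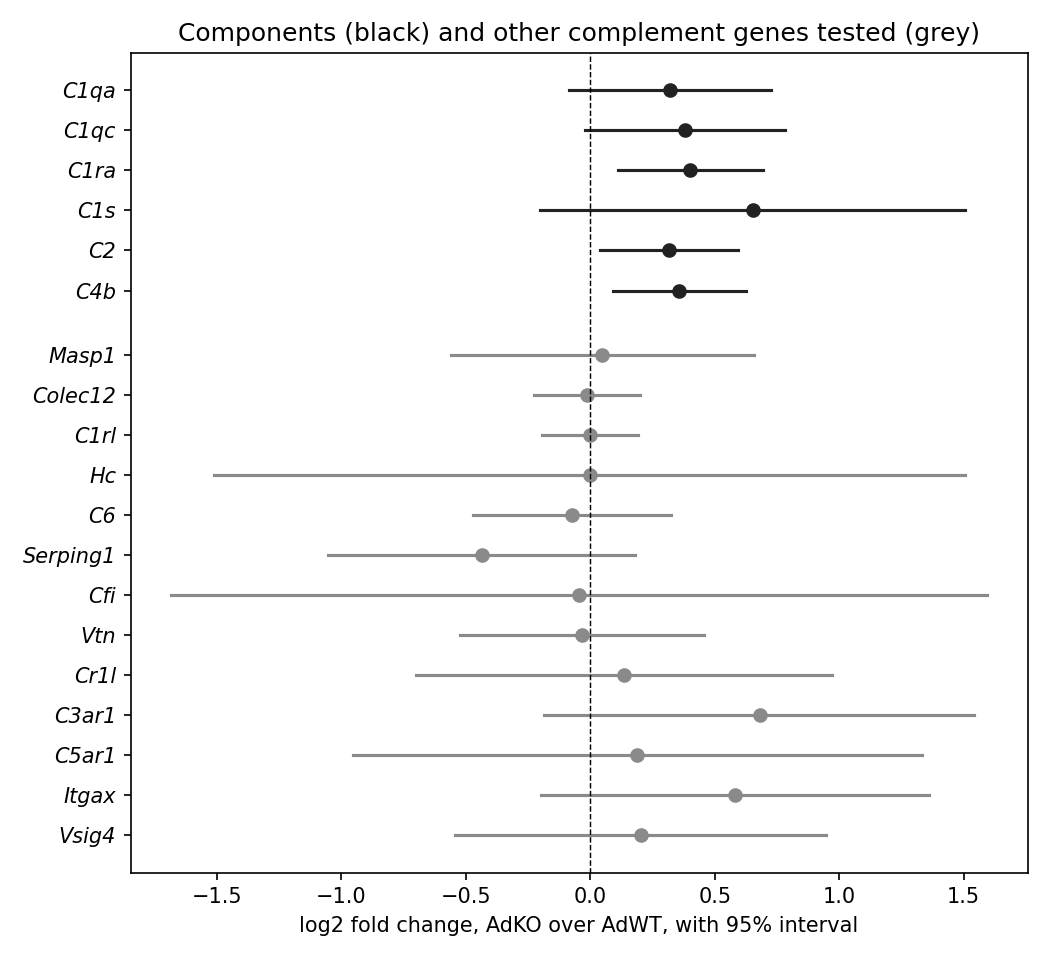
Log2 fold change of AdKO-labelled libraries over AdWT-labelled ones, with its 95% interval from edgeR, for the 6 counted components in black and the 13 other complement genes tested in grey. The intervals of C1ra, C2 and C4b lie above 0, those of the other 3 components and of all 13 other genes include 0, and no gene passed the adjusted threshold.

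The rest of the complement system was described from a list of 42 other genes, of which 32 have a row, 27 have counts above 0 and 13 were tested. Of the 13, 6 were higher and 7 lower in AdKO-labelled libraries, the median log2 fold change was 0.00 (-0.003), and 0 had an unadjusted *p* under 0.05, were called, or had groups apart. Without AdWT 3 this median was 0.21. The receptors lay highest, with 4 of 4 tested above 0 and a median of 0.39, none passing. *C3ar1*, the receptor for the C3a fragment, had 1730, 1181 and 577 counts in AdWT-labelled libraries against 1217, 1943 and 2405 in AdKO-labelled ones, a log2 fold change of 0.68 (SE 0.37). Its groups overlapped, with AdWT 3 lowest, as it was for the C1q chains.

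The 3 soluble inhibitors tested had a median log2 fold change of -0.045 and the 2 terminal components one of -0.038, both near 0. Apart from *Serping1*, each of these genes lay between -0.072 and -0.003, with an SE of at least 0.17. *Cr1l*, the 1 membrane inhibitor tested, was at 0.14, and none of these genes passed. *Serping1*, the C1 inhibitor that blocks C1r and C1s, had 79, 50 and 72 counts in AdWT-labelled libraries against 51, 54 and 42 in AdKO-labelled ones, with a log2 fold change of -0.44 (SE 0.26), overlapping groups, and 2 rows. *C6*, a terminal component, had between 1626 and 3025 counts and a log2 fold change of -0.07, and *C1rl*, a relative of C1r, had between 715 and 934 counts and a log2 fold change of -0.003. *Cfd*, adipsin, is not analysed here.

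The libraries were next set against markers of the cells that could supply each component. The macrophage list has 15 genes, of which 10 have a row and 9 have counts, and their summed CPM was 1249, 888 and 575 in AdWT 1, 2 and 3 and 973, 1193 and 1322 in AdKO 1, 2 and 3. AdWT 3 was the lowest library in 6 of these 9 markers and in both C1q chains. Of the defining markers, *Adgre1* was listed at 0 in 6 rows, *Csf1r* had between 6 and 24 counts in the highest of its 4 rows, and *Cd68* is not analysed here, so the sum rests mostly on *Mrc1*, *Lyz2* and *Mpeg1*. The ratio of summed *C1qa* and *C1qc* to summed macrophage markers was 0.710, 0.786 and 0.933 in AdWT-labelled libraries against 0.846, 0.805 and 0.697 in AdKO-labelled ones. The group means of this ratio were 0.810 ± 0.113 and 0.783 ± 0.0768 (SD, n = 3) with overlapping groups, where the summed C1q level itself was 707 ± 176 and 902 ± 71.1 CPM. The ratio spanned 1.34-fold over the libraries, less than the 1.79-fold of C1q or the 2.30-fold of the markers. Of 8 macrophage markers tested, 5 were higher and 3 lower in AdKO-labelled libraries, and 0 were called. The 1 marker with an unadjusted *p* under 0.05 and groups apart was *Mertk*, a receptor for the uptake of dying cells, which was lower, with a log2 fold change of -0.30 (SE 0.11). Of all rows tested, 5.73% had such a *p* and 11.9% had groups apart, in either direction. The part of macrophage number in the C1q values was not tested.

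**Figure D3:**
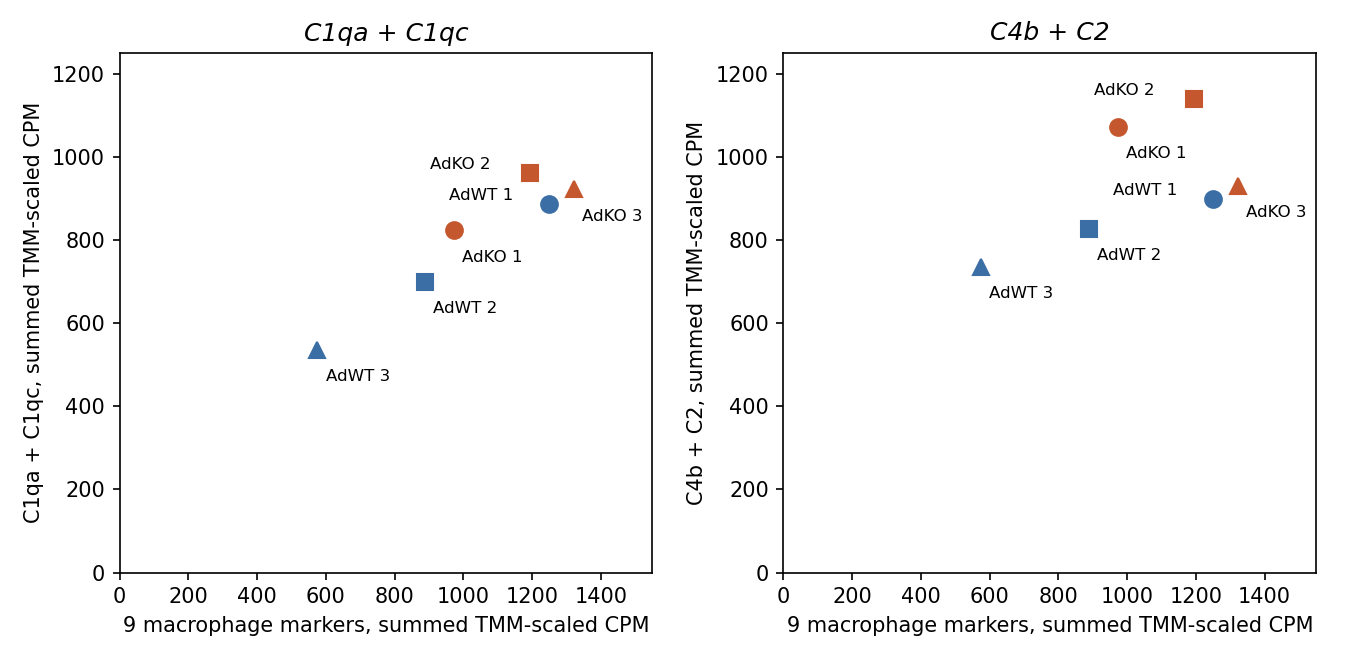
Summed C1qa and C1qc (left) and summed C4b and C2 (right), both in TMM-scaled CPM, against the summed CPM of 9 macrophage markers, with 1 point for each of the 6 libraries. AdWT 3 is lowest on all axes, and AdWT 1, with 1249 CPM of markers, has a C1q level of 887 CPM, among those of AdKO-labelled libraries.

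Other cell markers also differed between libraries. The summed fibroblast and progenitor markers ranged from 3562 to 7612 CPM in AdWT-labelled libraries and from 5776 to 10430 CPM in AdKO-labelled ones, with AdWT 3 lowest. This sum is mostly *Col3a1*, with 3200 CPM in AdWT 3 and 9670 CPM in AdKO 2. Over single markers, AdWT 3 was the lowest library in 3 of the 9 with counts. Summed adipocyte markers were between 46210 and 54690 CPM in AdWT-labelled libraries and between 41410 and 42070 CPM in AdKO-labelled ones, with AdWT 3 highest, and the groups did not overlap. This sum is nearly all *Fabp4*, *Lep* and *Adipoq*, of which *Adipoq* had overlapping groups, as did *Plin1*, *Lipe* and *Pparg*. All 3 mast cell markers tested were higher in AdKO-labelled libraries with groups apart, where 6.16% of all rows tested were apart in that direction. Their sum was 61.0 to 100.5 CPM against 128 to 185 CPM. Skeletal muscle markers were lower (39.2 to 194.5 CPM against 20.8 to 23.0 CPM), and 0 genes were called in either list. The part of these cell types in the component values was not tested.

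The liver makes most plasma complement, so liver RNA in a library bears on the components that hepatocytes make. Of 25 hepatocyte markers, 14 have a row and 12 have counts above 0, and 11 of these 12 were higher in both replicate 3 libraries than in any other library. Their summed CPM was 120, 178 and 930 in AdWT 1, 2 and 3 and 135, 140.2 and 481 in AdKO 1, 2 and 3. *Ttr*, transthyretin, had 56, 155 and 2225 counts in AdWT-labelled libraries against 35, 136 and 929 in AdKO-labelled ones, while *Alb* and *Apoa1* are not analysed here. Some complement genes made by hepatocytes were high in the same libraries. *C9*, the pore-forming terminal component, had 1, 9 and 93 counts in AdWT-labelled libraries against 4, 9 and 45 in AdKO-labelled ones. *Mbl2*, a mannose-binding lectin, had 0, 5 and 100 counts in AdWT-labelled libraries against 1, 5 and 45 in AdKO-labelled ones. Over the complement genes outside the 9, 8 of the 27 with counts were highest in both replicate 3 libraries.

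The components did not follow that pattern. On the scaled CPM, no component was highest in AdWT 3 or in AdKO 3, and AdWT 3, the library with the highest sum of hepatocyte markers, was the lowest of the 6 libraries in 5 of the 6 (in *C2* the lowest was AdWT 2). Without replicate 3 of both groups, the median log2 fold change of the components was 0.40, all 6 stayed above 0 (51.03% of all rows in that fit), 3 had an unadjusted *p* under 0.05 (4.154% of all rows) and 0 were called. In that comparison *C2* was at 0.45, while the C1q chains were lower, *C1qa* at 0.14 and *C1qc* at 0.19. *C1ra*, *C4b* and *C2* are themselves made by the liver, and the amount that hepatocyte RNA adds to their counts in the replicate 3 libraries was not tested.

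**Figure D4:**
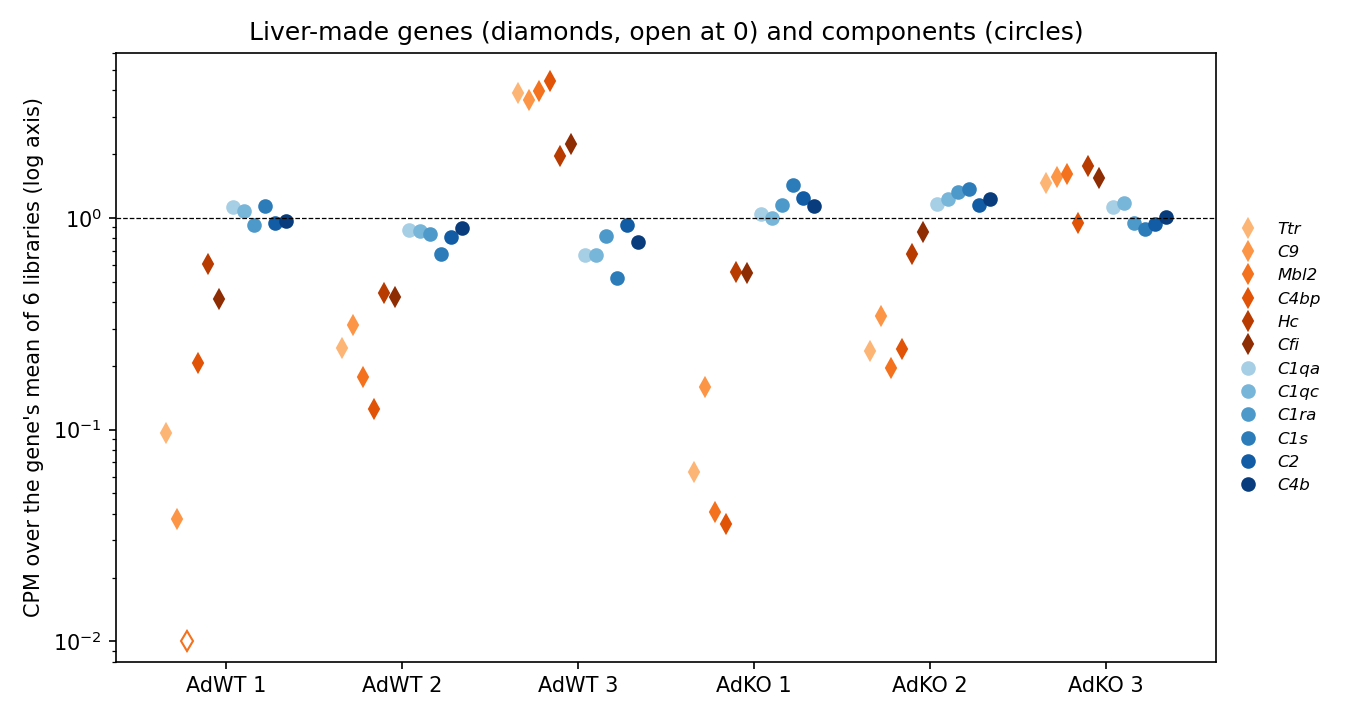
CPM of 6 liver-made genes (diamonds, Ttr and 5 complement genes) and of the 6 counted components (circles) in each library, divided by the mean of that gene over the 6 libraries, on a log axis, where the open diamond is a count of 0 drawn at the foot of the axis. The diamonds are highest in AdWT 3, and 5 of the 6 lie above 1 in AdKO 3, while no component is highest in either library.

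Complement genes are also known to respond to inflammatory signals. Of 12 genes of the interferon-gamma response, the receptor gene *Ifngr1* among them, 8 were tested, and these had a median log2 fold change of 0.02 with 0 at an unadjusted *p* under 0.05. Of 10 acute-phase genes, 6 were tested, and all 6 were higher in AdKO-labelled libraries with a median of 0.32, 3 of them at an unadjusted *p* under 0.05 (2.76% of all rows in that direction) and 0 called. *Socs3*, a feedback inhibitor of cytokine signalling, had 228, 210 and 166 counts in AdWT-labelled libraries against 256, 286 and 243 in AdKO-labelled ones, a log2 fold change of 0.40 (SE 0.16). It had overlapping groups on the CPM scale and was the row ranked 3 in nearness to *C4b*. The part of such signals in the component values was not tested.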

How the data were processed

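Bulk RNA-seq of iWAT was analysed from 3 mice labelled *Lexis*-AdWT and 3 labelled *Lexis*-AdKO. Libraries were made with a stranded kit, and reads were aligned by the authors with HISAT2 (mm9), and what they deposited are raw counts per row, not normalized. The counting tool, annotation and strand setting are not given in the sources used here. For a symbol on several rows, that with the highest total was used. Counts were tested with edgeR 4.0.16 (R 4.3.3) by filterByExpr, TMM, glmQLFit and glmQLFTest over 9872 rows, with Benjamini-Hochberg adjustment. Alternatives included DESeq2 1.42.0, and the fits were tested on simulated data. Total counts ranged from 14470542 to 17882713 and the common coefficient of variation was 0.196, so spread between mice limits precision more than counting for rows with high counts, while *C1s* is also limited by counting. Exact permutation tests and row nearness used log2 CPM plus 0.5. Sequences were compared with Biopython 1.88. Named genes are the 9 components, *C3ar1*, *Serping1*, *C4a* and *Cfd*, any other complement gene with an unadjusted *p* under 0.05 or groups apart, the 3 nearest rows of each component, and defining markers. Liver-made complement genes, *C6*, *C1rl*, *C1rb*, *Socs3*, *Pnpla2*, *Gm5077* *Mertk*, *Cr1l*, *Col3a1*, *Ifngr1* and the other markers that lead or depart from a sum were named after their values were seen. The components and gene lists were chosen with earlier results of these data known. Some results for single genes are left out of this text.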

Additional observations from a re-analysis of the deposited data

How the results depend on the processing

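Over 14 alternatives, 0 components and 0 other complement genes were called, and every component tested kept a log2 fold change above 0 (5 components with at least 10 counts in every library, where *C1s* is left out). The smallest adjusted *p* of a component over all alternatives was 0.392, without AdWT 1. Leaving out 1 library gave a components' median between 0.28 (without AdKO 2) and 0.49 (without AdWT 1), and a median of the other complement genes between -0.085 and 0.21, the latter without AdWT 3. Unadjusted *p* under 0.05 held for 6 components without AdWT 1 (11.84% of all rows in that fit), 1 without AdKO 2 (3.824%), 2 without AdWT 2 (3.199%) and 2 without AdKO 1 (4.488%), against 3 with all libraries (5.73%). Rows called over the whole table were 27 by DESeq2, 1 with any row of at least 1 count kept, 1 without replicate 3 of both groups, and between 0 and 1 with 1 library left out (1 without AdKO 3). With the replicate number as a replicate block the components' median was 0.38, that of the other complement genes 0.08, and 0 rows were called, with 418 rows at an unadjusted *p* under 0.05 against 566. Deviations of same-numbered libraries correlated at -0.10, -0.12 and 0.35, and only replicate 3 correlated best with its own number. These values do not show that the numbers pair the mice. They cannot exclude it either, since differences in cell content between libraries also enter them. Scaling by library size alone moved the median of all rows from 0.01 to 0.05. Groups of 3 limit precision, and genes sharing sequence with a relative have counts of uncertain division.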
